A study of Mus musculus with 8 samples.

Results

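Cd8a and Cd8b1 encode the α and β chains of CD8, the coreceptor of cytotoxic T cells, and their transcripts were followed here in T cells sorted or bead-selected from mouse MC38 colon tumours. Both genes were taken by name, and they are 2 of the 31053 genes counted in experiment 1 and of the 32285 counted in experiment 2. Values are unique molecular identifiers (UMIs), each standing for 1 captured transcript, in 4 droplet libraries whose T cell receptor sequences were read from matched libraries. T barcodes were defined without the CD8 genes, by a productive TRB (T cell receptor β) contig, at least 1 UMI summed over Cd3d, Cd3e and Cd3g, and no Cd4 UMI. The rule kept 5372 of 6361 deposited barcodes in the rhIL-7-hyFc 10 mg/kg library, 2912 of 5589 in the buffer library, 8051 of 11501 in the combination library and 6936 of 12560 in the rhIL-7-hyFc 1.25 mg/kg library.

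All mice were wild-type C57BL/6 with palpable MC38 tumours, and rhIL-7-hyFc is a long-acting recombinant human IL-7 fused to a hybrid Fc. Experiment 1 set a subcutaneous dose of 10 mg/kg rhIL-7-hyFc against buffer, with tumours taken 7 days later and CD8 T cells positively selected on magnetic beads through a marker the labels do not name. Experiment 2 gave every mouse 1.25 mg/kg rhIL-7-hyFc, with or without intravenous TCE from day 3, an antibody with one arm for mouse PD-L1 and the other for CD3ε. Tumours were taken 24 hours after the final injection, and live CD45+ TCRb+ CD8a+ cells were sorted by flow cytometry. The combination of rhIL-7-hyFc and TCE is therefore compared with rhIL-7-hyFc alone, and neither of these libraries lacks IL-7. The sort on the CD8α protein admits only cells that carry it at the surface, which bears on every share of experiment 2 cells without Cd8a. The bead selection may bear on the shares of experiment 1 too, in a way that cannot be told while its marker is not named. Each group is 1 library, and how many mice it pools is not stated in the labels used here. No difference between treatments has a replicate check, no p-value is given, and every interval is a 95% interval that covers counting error only.

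On conventional cytotoxic T cells CD8 is an αβ heterodimer that binds the MHC class I molecule beside the T cell receptor and brings the kinase Lck, held by the tail of the α chain, to the receptor. The β chain reaches the surface only in partnership with the α chain, whereas α chains can also pair with each other, as on some innate-like lymphocytes and on a subset of dendritic cells. Coreceptor tuning is the described feedback by which IL-7 and related cytokines raise Cd8a transcription in resting T cells while T cell receptor signalling that dampens the cytokine signal lowers it. Pdcd1 encodes PD-1, an inhibitory receptor made after antigen stimulation, and was used here with clone size as a sign of past stimulation.

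The genes lie near each other on the plus strand of mouse chromosome 6 (GRCm38, GENCODE M21). Cd8b1 (ENSMUSG00000053044) spans positions 71322788 to 71337494 and Cd8a (ENSMUSG00000053977) spans positions 71373427 to 71379173, with 35932 bases between them. The long noncoding gene Gm44174 lies between them on the same strand and had 219, 107, 251 and 156 UMIs in T barcodes of the rhIL-7-hyFc 10 mg/kg, buffer, combination and rhIL-7-hyFc 1.25 mg/kg libraries. Cd8a had 43484, 40863, 58217 and 47241 UMIs in the same order, and Cd8b1 had 69329, 40280, 56874 and 47850. Transcripts assigned to Gm44174 were thus few beside either. Other genes are annotated between them, and those that were counted, Gm44110 and Gm44175, had fewer UMIs than Gm44174 in every library.

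T barcodes had a median of 9662 and 9482 UMIs in the rhIL-7-hyFc 10 mg/kg and buffer libraries and of 6324 and 5982 in the combination and rhIL-7-hyFc 1.25 mg/kg libraries. Libraries shared 45 to 195 barcode sequences in pairs, and no T barcode shared with another library carried the same TRB sequence. RNA of other cells was present in unequal amounts. A list of 7 myeloid genes summed to 141 CPM (pooled UMIs of the genes scaled to a common library total) in T barcodes of the rhIL-7-hyFc 10 mg/kg library, 256 in the buffer library, 316 in the combination library and 1968 in the rhIL-7-hyFc 1.25 mg/kg library, which stands apart. All 12 genes of the macrophage list were detected in each library, summing to 548, 842, 755 and 4362 CPM in that order. Of these sums, Ctss gave 237, 198, 183 and 744 CPM and Fcer1g 138, 322, 211 and 1262. A Ctss UMI was found in 81.4%, 73.2%, 52.6% and 64.1% of T barcodes. The 12-gene sum is therefore no measure of RNA of other cells alone. Cd4 is at 0 by the rule, and 16, 38, 51 and 52 further barcodes were left out for a Cd4 UMI.

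Transcripts of both chains were abundant in every library. Cd8a stood at 757 CPM (95% interval 750 to 764) in T barcodes after rhIL-7-hyFc 10 mg/kg, against 1242 (1230 to 1254) after buffer. It stood at 997 (989 to 1005) after the combination and 903 (894 to 911) after rhIL-7-hyFc 1.25 mg/kg. Cd8b1 stood at 1207 (1198 to 1216) after rhIL-7-hyFc 10 mg/kg and 1224 (1212 to 1236) after buffer. In experiment 2 the Cd8b1 level was 974 (966 to 982) after the combination and 914 (906 to 923) after rhIL-7-hyFc 1.25 mg/kg. In experiment 1 Cd8a thus lay lower after rhIL-7-hyFc 10 mg/kg than after buffer, while the Cd8b1 levels lay close together. The experiments differ in cell selection and counting version, so folds are formed only within an experiment and levels of both are set side by side as descriptions.

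Per cell, after each barcode was thinned to 4000 UMIs, the median Cd8a count was 2 UMIs after rhIL-7-hyFc 10 mg/kg and 4 after buffer, against a median of 5 Cd8b1 UMIs in both. The combination had medians of 4 Cd8a and 4 Cd8b1 UMIs, and rhIL-7-hyFc 1.25 mg/kg had 3 and 4. The difference in Cd8a ran through the whole distribution: barcodes at the 10th and 90th percentiles had 0 and 6 UMIs after rhIL-7-hyFc 10 mg/kg, against 1 and 10 after buffer. The Cd8b1 to Cd8a UMI ratio was 1.59 after rhIL-7-hyFc 10 mg/kg, against 0.986 after buffer, and 0.977 after the combination, against 1.01 after rhIL-7-hyFc 1.25 mg/kg. UMIs count 5′ transcript ends, so they are not divided by gene length, and only changes in this ratio are read, since capture and mapping may differ between the genes.

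Across all T barcodes of experiment 1, Cd8a was 1.64-fold lower after rhIL-7-hyFc 10 mg/kg than after buffer (fold 0.610, 0.601 to 0.618), and Cd8b1 was at a fold of 0.986 (0.974 to 0.998). A difference of at least 1.5-fold in pooled CPM is called here, and over the 8795 genes that reached 5 CPM in either library 7.71% were called higher and 16.8% lower. The Cd8a call is therefore one that a sizeable part of all genes shared. Scaling by TMM, which moves every fold of this contrast alike by 0.21 on the log2 scale, put Cd8a at 0.703, where its call is lost, and Cd8b1 at 1.14, on the other side of 1. No direction is therefore read for Cd8b1. Counting each clonotype once gave 0.881 for Cd8a and 1.43 for Cd8b1. In experiment 2, Cd8a was at a fold of 1.10 (1.09 to 1.12) and Cd8b1 at 1.07, in the combination over rhIL-7-hyFc 1.25 mg/kg, where 2.43% of 9286 genes were called higher and 8.48% lower. Neither chain passed 1.5-fold there. Without barcodes holding a UMI of the 7 myeloid genes, whose sum was highest after rhIL-7-hyFc 1.25 mg/kg, the folds were 0.970 for Cd8a and 0.913 for Cd8b1, so the direction of both turned.

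The T barcodes of experiment 1 differed in their makeup. Barcodes with a Pdcd1 UMI made up 16.8% (905) after rhIL-7-hyFc 10 mg/kg, against 73.1% (2130) after buffer. In experiment 2 they made up 61.7% (4967) after the combination, against 49.8% (3454) after rhIL-7-hyFc 1.25 mg/kg. Unexpanded Pdcd1-negative barcodes, whose clonotype was seen once, were 81.8% after rhIL-7-hyFc 10 mg/kg, against 21.4% after buffer, and 34.9% after the combination, against 45.7% after rhIL-7-hyFc 1.25 mg/kg. Levels over all T barcodes are thus averages over different mixtures, and each chain was next set out by Pdcd1 state.

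Cd8a was higher in Pdcd1-positive than in Pdcd1-negative T barcodes of every library. It stood at 1129 CPM in Pdcd1-positive and 647 in Pdcd1-negative barcodes after rhIL-7-hyFc 10 mg/kg, a fold of 1.74 (1.71 to 1.78). After buffer the values were 1371 and 635, a fold of 2.16 (2.09 to 2.23), and after the combination they were 1206 and 626, a fold of 1.93 (1.89 to 1.96). Under rhIL-7-hyFc 1.25 mg/kg they were 1099 and 614, a fold of 1.79 (1.75 to 1.82). The Pdcd1-negative level, before any correction for depth, thus lay between 614 and 647 CPM in the 4 libraries, while the Pdcd1-positive level ranged from 1099 to 1371. Over all genes tested in the same contrast, 21.3%, 15.5%, 10.5% and 15.3% were called higher in Pdcd1-positive barcodes of the rhIL-7-hyFc 10 mg/kg, buffer, combination and rhIL-7-hyFc 1.25 mg/kg libraries, and 8.27%, 9.39%, 5.86% and 8.83% lower.

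**Figure D1:**
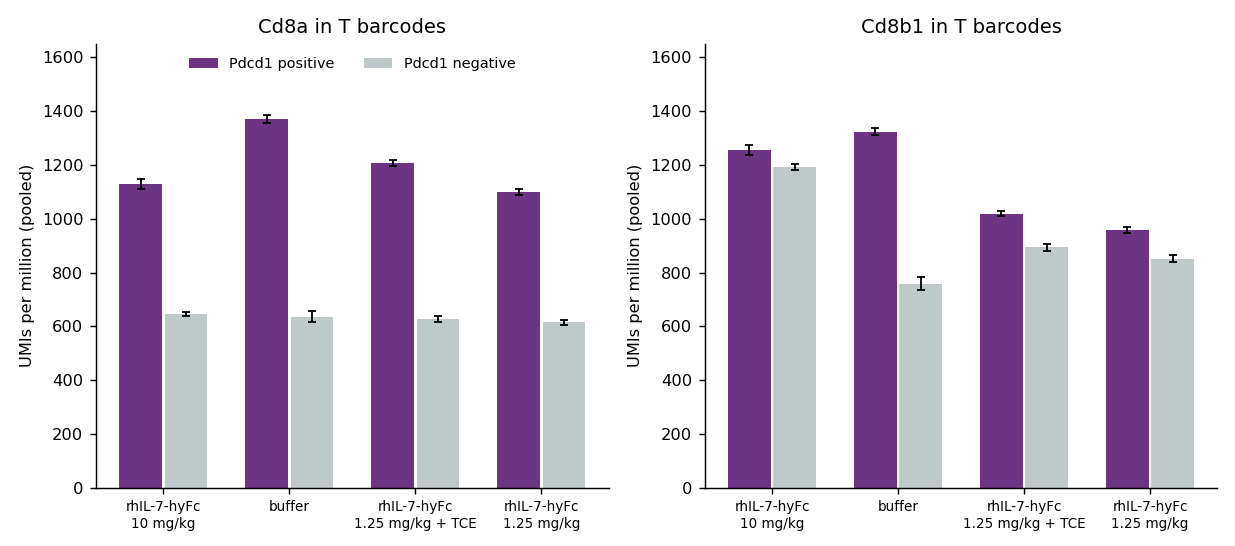
Pooled CPM of Cd8a (left) and Cd8b1 (right) in Pdcd1-positive and Pdcd1-negative T barcodes of the 4 libraries, with 95% counting intervals. At unequal depth, Cd8a in Pdcd1-negative barcodes lay between 614 and 647, while Cd8b1 in those barcodes of experiment 1 was at 1193 after rhIL-7-hyFc 10 mg/kg and 759 after buffer.

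Cd8b1 did not follow the same pattern. Its level was 1256 CPM in Pdcd1-positive and 1193 in Pdcd1-negative barcodes after rhIL-7-hyFc 10 mg/kg, a fold of 1.05, but 1324 and 759 after buffer, a fold of 1.74 (1.69 to 1.80). After the combination it was 1019 and 895, a fold of 1.14, and after rhIL-7-hyFc 1.25 mg/kg 957 and 852, a fold of 1.12. Only the buffer library passed 1.5-fold, and without barcodes holding a Klra7 UMI its fold was 1.40. The Cd8b1 to Cd8a ratio was lower in Pdcd1-positive barcodes throughout: 1.11 in Pdcd1-positive and 1.84 in Pdcd1-negative barcodes after rhIL-7-hyFc 10 mg/kg, 0.965 and 1.20 after buffer, 0.845 and 1.43 after the combination, and 0.871 and 1.39 after rhIL-7-hyFc 1.25 mg/kg. Pdcd1-positive barcodes also held more RNA, with medians of 12851, 10916, 6523 and 7591 UMIs in those 4 libraries against 9351, 6677, 6046 and 5094 in Pdcd1-negative ones, so the step by Pdcd1 count was repeated at equal depth.

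With every barcode thinned to 4000 UMIs, Cd8a climbed with the number of Pdcd1 UMIs left. Barcodes with 0, 1, 2 to 3 and 4 or more Pdcd1 UMIs had 644, 1016, 1303 and 1345 CPM of Cd8a after rhIL-7-hyFc 10 mg/kg. The same steps read 783, 1271, 1477 and 1661 after buffer, 668, 1038, 1250 and 1492 after the combination, and 683, 1023, 1226 and 1491 after rhIL-7-hyFc 1.25 mg/kg. The order of the steps was the same in all 4 libraries, although the intervals of the upper 2 bins overlapped after rhIL-7-hyFc 10 mg/kg. At this equal depth, barcodes with 0 Pdcd1 UMIs stood at 644 (632 to 656) after rhIL-7-hyFc 10 mg/kg and 783 (755 to 812) after buffer. Thinning also removes Pdcd1 UMIs, so barcodes that were Pdcd1-positive before it can fall into this bin. It held 4490 barcodes after rhIL-7-hyFc 10 mg/kg and 956 after buffer, against 4467 and 782 Pdcd1-negative barcodes before thinning. The gap is thus not one between Pdcd1-negative barcodes alone. Cd8b1 went 1204, 1286, 1369 and 1481 after rhIL-7-hyFc 10 mg/kg, 925, 1005, 1051 and 1178 after the combination, and 883, 914, 1030 and 1288 after rhIL-7-hyFc 1.25 mg/kg. After buffer it went 882, 1281, 1431 and 1670. Between 0 and 1 Pdcd1 UMI the ratio of the chains was 1.87 and 1.27 after rhIL-7-hyFc 10 mg/kg but 1.13 and 1.01 after buffer.

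**Figure D2:**
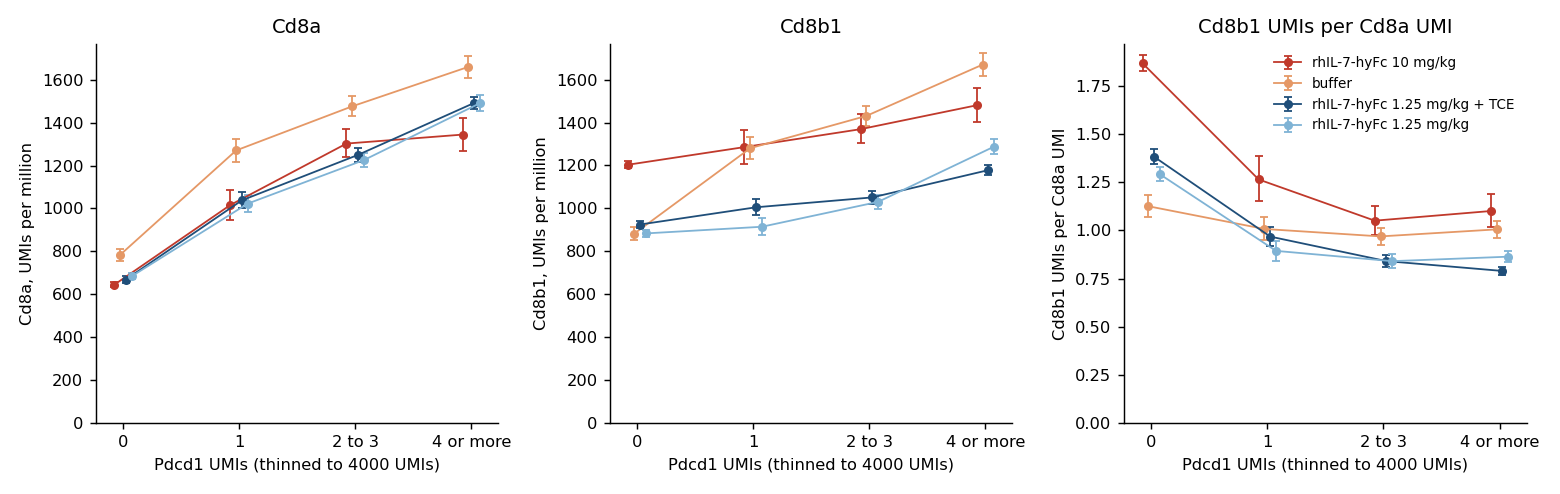
Cd8a CPM, Cd8b1 CPM and the Cd8b1 to Cd8a UMI ratio in T barcodes thinned to 4000 UMIs, by the number of Pdcd1 UMIs (0, 1, 2 to 3, 4 or more), with 95% counting intervals. Cd8a climbs from bin to bin in every library, and the ratio is highest at 0 Pdcd1 UMIs, with 1.87 after rhIL-7-hyFc 10 mg/kg, 1.13 after buffer, 1.38 after the combination and 1.29 after rhIL-7-hyFc 1.25 mg/kg.

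Within Pdcd1 states, the treatment contrast of experiment 1 had another shape than over all T barcodes. Among Pdcd1-positive barcodes, Cd8a was at a fold of 0.823 (0.808 to 0.839) and Cd8b1 at 0.949 (0.932 to 0.967) after rhIL-7-hyFc 10 mg/kg over buffer, where 2.99% of genes were called higher and 2.67% lower. Among Pdcd1-negative barcodes Cd8a was at 1.02 (0.985 to 1.06), where the 1.64-fold gap seen over all T barcodes was not found. That fold was 0.856 thinned to 4000 UMIs, with Pdcd1 state read after thinning. It was 0.912 without barcodes holding a Klra7 UMI and 0.972 without myeloid UMIs, so its direction is not fixed. Cd8b1 was 1193 CPM after rhIL-7-hyFc 10 mg/kg and 759 after buffer in these barcodes, a fold of 1.57 (1.52 to 1.62), against a background of 3.59% of 8618 genes called higher and 11.3% lower. In Pdcd1-negative barcodes of clone size 1 the folds were 1.18 (1.14 to 1.23) for Cd8a and 1.88 (1.81 to 1.95) for Cd8b1. The few expanded Pdcd1-negative barcodes went the other way. In clone size 2 to 4 (56 and 68 barcodes) Cd8a was at 0.712 (0.614 to 0.826) and Cd8b1 at 0.921 (0.816 to 1.04). In clone size 5 or more (15 and 90 barcodes) Cd8a was at 0.768 (0.646 to 0.910) and Cd8b1 at 0.822 (0.708 to 0.952).

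The size of the Cd8b1 difference over all Pdcd1-negative barcodes moved with which barcodes were kept. It was 1.48 without barcodes holding a UMI of the 7 myeloid genes, 1.33 after thinning to 4000 UMIs, and 1.26 without barcodes holding a Klra7 UMI, an alternative added after the values were seen. The myeloid sum in Pdcd1-negative barcodes was 120 CPM after rhIL-7-hyFc 10 mg/kg and 250 after buffer. Thinning also removes the shallowest barcodes, and the median depth of Pdcd1-negative barcodes was 9351 UMIs after rhIL-7-hyFc 10 mg/kg and 6677 after buffer. Pdcd1 state was read after thinning in that setting, so barcodes that lost all their Pdcd1 UMIs count as negative in it. The fold stayed above 1 under each of these settings but was under 1.5 in all 3 of them.

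In experiment 2, both chains differed little between the combination and rhIL-7-hyFc 1.25 mg/kg in either state. Cd8a was at 1.10 (1.08 to 1.11) in Pdcd1-positive barcodes, where 3.06% of genes were called higher and 8.77% lower, and at 1.02 (0.994 to 1.04) in Pdcd1-negative barcodes, where the shares were 6.19% and 9.05%. The widest Cd8a difference by clone size was 1.16 (1.15 to 1.18), in clonotypes of 5 or more barcodes, at 1356 CPM after the combination and 1164 after rhIL-7-hyFc 1.25 mg/kg. Among barcodes of clone size 1, Cd8a was at a fold of 1.02 and Cd8b1 at 1.06. Without barcodes holding myeloid UMIs, Cd8a was at 0.903 in Pdcd1-positive and 0.904 in Pdcd1-negative barcodes, 0.975 in clone size 5 or more and 0.903 in clone size 1, and Cd8b1 in clone size 1 was at 0.918. No direction is read for either chain in experiment 2.

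**Figure D3:**
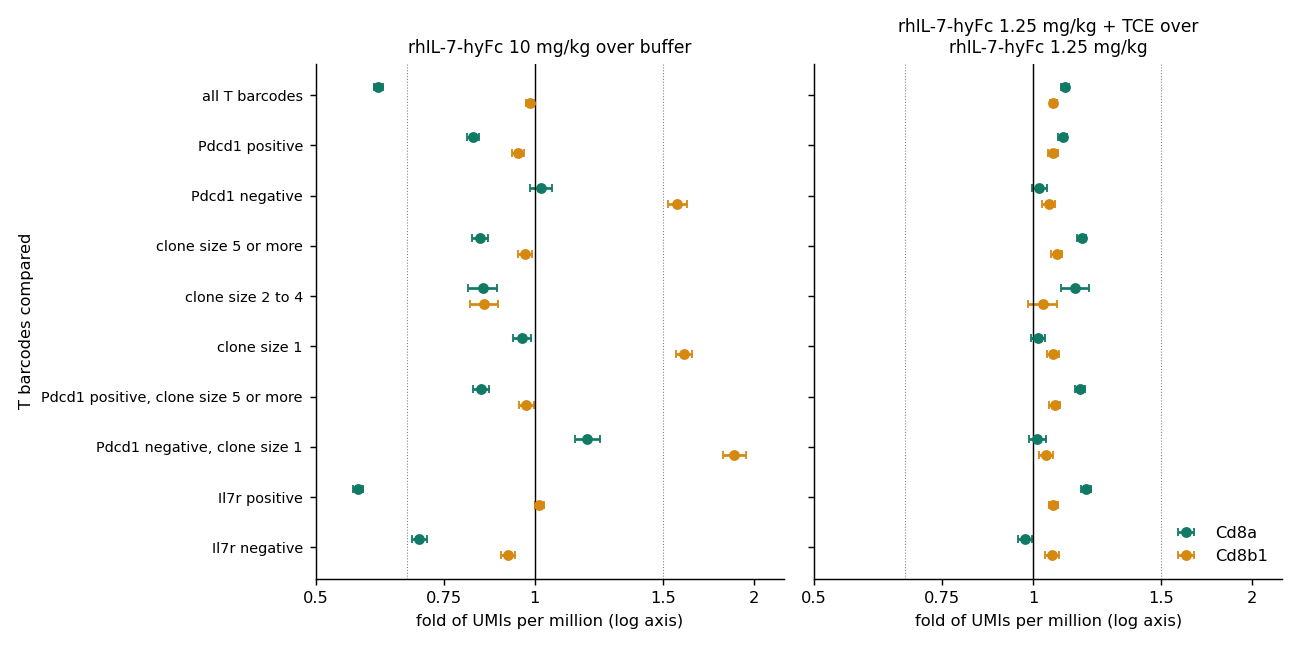
Fold of pooled CPM (log axis) for Cd8a and Cd8b1 in rhIL-7-hyFc 10 mg/kg over buffer (left) and the combination over rhIL-7-hyFc 1.25 mg/kg (right), within groups of T barcodes, with 95% counting intervals and dotted lines at 1.5-fold. Cd8a is at 0.610 over all T barcodes of experiment 1 but 1.02 in Pdcd1-negative ones, where Cd8b1 is at 1.57. Thinned to 4000 UMIs, with Pdcd1 state read after thinning, that Cd8a fold is 0.856. Every fold of experiment 2 lies inside the dotted lines.

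Clone size, counted from the receptor sequences and not from expression, ordered Cd8a as Pdcd1 did. In clonotypes of 5 or more barcodes Cd8a was at 1227 CPM after rhIL-7-hyFc 10 mg/kg, 1458 after buffer, 1356 after the combination and 1164 after rhIL-7-hyFc 1.25 mg/kg. In barcodes of clone size 1 it was at 661, 688, 643 and 633, so the unexpanded levels lay closer together than the expanded ones. The folds of expanded over unexpanded barcodes were 1.86 (1.81 to 1.90), 2.12 (2.06 to 2.18), 2.11 (2.07 to 2.15) and 1.84 (1.80 to 1.87) for Cd8a. For Cd8b1 they were 1.14, 1.90, 1.19 and 1.18, so again buffer alone passed 1.5-fold, and it stood at 1.497, just under the threshold, without barcodes holding a Klra7 UMI. The shares of all genes called higher in expanded barcodes were 23.7%, 15.0%, 12.3% and 14.3%, and 11.0%, 9.56%, 7.51% and 9.36% were called lower.

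Clone size and Pdcd1 overlap, and each was read within the other. Within Pdcd1-positive barcodes, expanded over unexpanded clonotypes had Cd8a folds of 1.45, 1.70, 1.87 and 1.505 in the rhIL-7-hyFc 10 mg/kg, buffer, combination and rhIL-7-hyFc 1.25 mg/kg libraries. Within clone size 1, Pdcd1-positive over negative barcodes had Cd8a folds of 1.32, 1.58, 1.20 and 1.304, smaller than the 1.74 to 2.16 found without regard to clone size. Cd8b1 in the same unexpanded barcodes had folds of 0.889, 1.36, 1.01 and 0.900, lower than 1 with intervals that leave out 1 in the rhIL-7-hyFc 10 mg/kg and 1.25 mg/kg libraries. Clonotypes with at least 5 barcodes in both Pdcd1 states were few, at 0, 3, 4 and 4 in those libraries, and Cd8a was higher in the Pdcd1-positive barcodes of 2, 3 and 4 of them in the buffer, combination and rhIL-7-hyFc 1.25 mg/kg libraries. After buffer, the Cd8b1 fold by Pdcd1 was 1.12 (1.02 to 1.23) within clone size 2 to 4. Within clone size 5 or more it was 0.946 (0.883 to 1.02), so the buffer difference by Pdcd1 was not found there. Within Pdcd1-negative buffer barcodes, expanded (90) over unexpanded clonotypes had folds of 2.32 (2.15 to 2.51) for Cd8b1 and 2.13 (1.96 to 2.33) for Cd8a.

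Il7r encodes the α chain of the IL-7 receptor and was detected in 66.6% of T barcodes after rhIL-7-hyFc 10 mg/kg, 56.4% after buffer, 60.9% after the combination and 66.2% after rhIL-7-hyFc 1.25 mg/kg. Cd8a differed little by Il7r detection, with folds of Il7r-positive over Il7r-negative barcodes of 0.907, 1.10, 1.16 and 0.953 in that order. Within Pdcd1-negative barcodes these folds were 0.887, 0.975, 1.04 and 0.898. Cd8b1 was at 1.16 (1.14 to 1.18), 1.20 (1.13 to 1.28), 0.954 (0.927 to 0.982) and 1.10 (1.07 to 1.14) in the Pdcd1-negative barcodes. None of these folds reached 1.5, and Il7r detection separated either chain less than Pdcd1 or clone size separated Cd8a.

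The share of cells in which a chain went undetected was measured at equal depth. Thinned to 4000 UMIs, 83.3% of T barcodes after rhIL-7-hyFc 10 mg/kg had UMIs of both chains, against 83.6% after buffer, and 87.0% after the combination, against 84.8% after rhIL-7-hyFc 1.25 mg/kg. Thinning left out 169, 254, 937 and 1147 shallower T barcodes of these libraries. Barcodes with Cd8b1 alone made up 11.2% after rhIL-7-hyFc 10 mg/kg, against 4.14% after buffer, and 7.84% after the combination, against 7.29% after rhIL-7-hyFc 1.25 mg/kg. Those with Cd8a alone made up 3.38% after rhIL-7-hyFc 10 mg/kg, against 8.05% after buffer, and 3.82% after the combination, against 5.94% after rhIL-7-hyFc 1.25 mg/kg. Unthinned, the shares with Cd8a alone were 2.03%, 6.90%, 2.96% and 3.40%.

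At the same 4000 UMIs, any Cd8a UMI was found in 86.7%, 91.7%, 90.8% and 90.7% of T barcodes after rhIL-7-hyFc 10 mg/kg, buffer, the combination and rhIL-7-hyFc 1.25 mg/kg, and any Cd8b1 UMI in 94.5%, 87.8%, 94.9% and 92.1%. Barcodes with neither a TRB contig nor a Cd3 UMI were set beside them. In these barcodes a list of 7 T cell genes, with the 3 Cd3 genes at 0, still summed to 65.1, 96.1, 131 and 70.1 CPM. They had a Cd8a UMI in 10.9% after rhIL-7-hyFc 10 mg/kg, 24.5% after buffer, 14.7% after the combination and 14.0% after rhIL-7-hyFc 1.25 mg/kg. They had a Cd8b1 UMI in 6.12%, 11.9%, 7.84% and 7.33%. Their median depths before thinning were 12062, 6837, 5196 and 5505 UMIs. They include barcodes with UMIs of Siglech, a gene of plasmacytoid dendritic cells, which can transcribe Cd8a, so they are no clean measure of free RNA. Of those with at least 2 myeloid UMIs, 8.45%, 34.3%, 2.38% and 4.92% had a Cd8a UMI unthinned, compared with between 93.3% and 95.3% of T barcodes in the 4 libraries. The Pdcd1-negative T barcodes of the buffer library stood out, with 15.1% holding Cd8a alone and 9.21% holding neither chain.

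T barcodes with at least 3 Cd8a UMIs and no Cd8b1 UMI numbered 44 after rhIL-7-hyFc 10 mg/kg, 96 after buffer, 106 after the combination and 98 after rhIL-7-hyFc 1.25 mg/kg, which is 0.819%, 3.30%, 1.32% and 1.41% of T barcodes. Most were unexpanded: 97.7%, 83.3%, 77.4% and 79.6% had clone size 1, compared with 84.3%, 20.5%, 36.7% and 39.9% of barcodes with at least 3 UMIs of each chain. They were also shallower, with medians of 7683, 6973, 4373 and 4858 UMIs against 10322, 11063, 6805 and 6946. Of 3993 genes with at least 20 CPM in these barcodes of every library, 16 (0.401%) were at least 2-fold higher in all 4 libraries than in barcodes with at least 3 UMIs of each chain, called barcodes with both chains below. This count was made after the values were seen, and the level required was that of the barcodes lacking Cd8b1, so it describes the set only.

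Those 16 genes were Klra1, Klra6, Klra7, Klrb1c, Klrc2, Tcrg-C4, Cd7, Id3, Ikzf2, Xcl1, Tmem176b, Atp1b1, Rbpms, Prrt1, Klhdc2 and 1810006J02Rik. Klra1, Klra6 and Klra7 encode Ly49 receptors for MHC class I, known from natural killer cells and from regulatory and innate-like CD8 T cells. These paralogs share sequence, so how their reads were split is uncertain. Klrb1c encodes NK1.1, Ikzf2 the transcription factor Helios, Id3 an inhibitor of E proteins and Xcl1 a chemokine that draws cross-presenting dendritic cells. Klra7 was at 395 CPM in barcodes without Cd8b1 and 10.5 in barcodes with both chains after rhIL-7-hyFc 10 mg/kg, and at 295 and 6.96 after buffer. Its values were 230 and 3.43 after the combination and 273 and 7.89 after rhIL-7-hyFc 1.25 mg/kg. Gzmf, a granzyme of strongly activated T cells, went the other way, with folds of 0.011, 0.050, 0.303 and 0.148 in the 4 libraries. Lyz2, a myeloid gene, was higher only in some: it was at 403 CPM without Cd8b1 and 45.4 with both chains after buffer, but at 79.5 and 194 after the combination, and its part in the buffer values was not tested.

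Read from the Klra7 side, both chains were lower in barcodes with at least 3 Klra7 UMIs. These numbered 175 after rhIL-7-hyFc 10 mg/kg, 183 after buffer, 130 after the combination and 147 after rhIL-7-hyFc 1.25 mg/kg. Fewer of them had a Pdcd1 UMI, at 10.9%, 35.5%, 29.2% and 27.2%, against 17.5%, 77.5%, 63.1% and 51.5% of barcodes with no Klra7. The part of Pdcd1 state in the levels of these barcodes was not tested. Cd8b1 was at 464 CPM in them and 1240 in barcodes with no Klra7 after rhIL-7-hyFc 10 mg/kg, at 172 and 1307 after buffer, at 325 and 992 after the combination, and at 403 and 936 after rhIL-7-hyFc 1.25 mg/kg. Cd8a was at 444 and 775, 440 and 1303, 437 and 1015, and 534 and 923. The level of Cd8a in barcodes with at least 3 Klra7 UMIs thus lay between 437 and 534 CPM in all libraries. Barcodes with 1 to 2 Klra7 UMIs lay above that range, with Cd8a at 557, 810, 550 and 557. Their Cd8b1 was at 975, 588, 593 and 606. At 4000 UMIs, Cd8b1 went undetected in 48.2%, 64.8%, 50.5% and 37.1% of barcodes with at least 3 Klra7 UMIs. It went undetected in 3.39%, 6.84%, 4.56% and 6.61% of barcodes with no Klra7. Cd8a went undetected in 28.8%, 34.7%, 26.9% and 22.7%, against 12.6%, 6.80%, 8.38% and 9.35%. Klra7 was taken up because of its values in barcodes without Cd8b1, so these levels are a description.

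**Figure D4:**
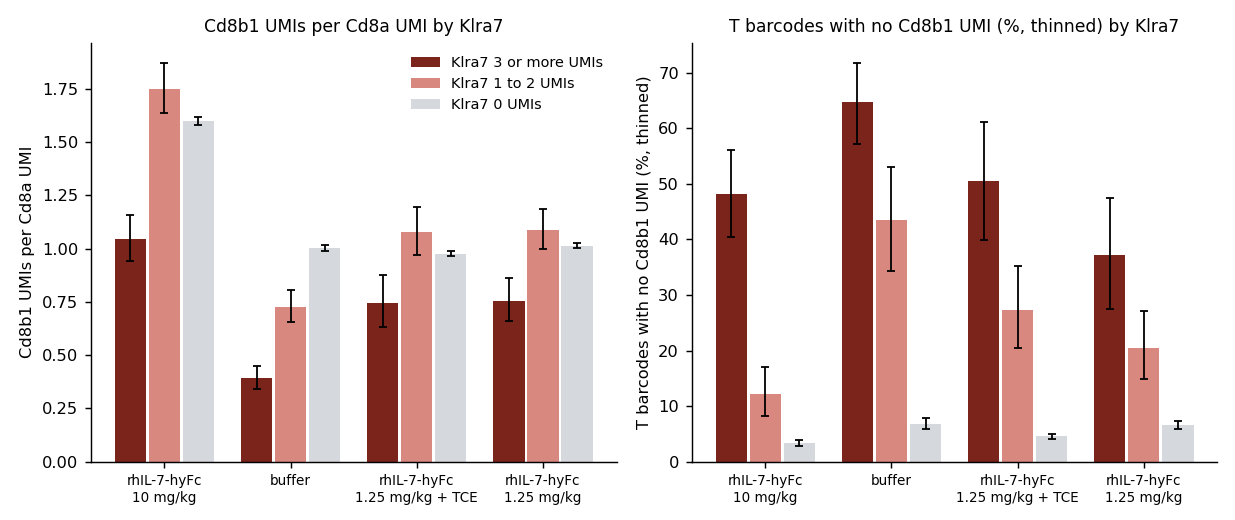
Cd8b1 UMIs per Cd8a UMI (left) and the percent of T barcodes with no Cd8b1 UMI after thinning to 4000 UMIs (right), by Klra7 UMIs in the 4 libraries, with 95% counting intervals. Barcodes with 3 or more Klra7 UMIs have the lowest ratio in every library (1.04, 0.391, 0.744 and 0.754) and lack Cd8b1 in 37.1% to 64.8%.

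Clonotypes of at least 20 barcodes numbered 4 after rhIL-7-hyFc 10 mg/kg, 24 after buffer, 49 after the combination and 43 after rhIL-7-hyFc 1.25 mg/kg. Their Cd8b1 to Cd8a ratio had medians of 1.06, 0.953, 0.783 and 0.858 and ranged from 0.979 to 1.61, from 0.431 to 1.47, from 0.314 to 1.19 and from 0.331 to 1.04. Their Cd8a ranged from 1099.8 to 1337 CPM, from 1113 to 2000.4, from 820.5 to 1814 and from 777 to 1804, so the ratio spread more widely than Cd8a, highest over lowest, in each library. The clonotypes are few after rhIL-7-hyFc 10 mg/kg, where most T barcodes were unexpanded.

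Of the TRB clonotypes (V gene and CDR3 nucleotide sequence), 13902 were found in 1 library, 137 in 2, 9 in 3 and 2 in all 4, a count that makes no use of the CD8 genes. The clonotype with more barcodes of the 2 found in all 4 libraries joins TRBV17 to TRBJ1-1 with a CDR3 of 33 bases. It is described with its low share of Cd8b1 already seen. It had 15 barcodes after rhIL-7-hyFc 10 mg/kg, 11 after buffer, 52 after the combination and 89 after rhIL-7-hyFc 1.25 mg/kg. A TRA contig of TRAV5-4 joined to TRAJ53 accompanied it in 15 of 15, 9 of 11, 43 of 52 and 81 of 89 of these barcodes.

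This TRBV17 clonotype had 0.683 Cd8b1 UMIs per Cd8a UMI (0.587 to 0.793) after rhIL-7-hyFc 10 mg/kg, 0.651 (0.516 to 0.820) after buffer, 0.528 (0.458 to 0.609) after the combination and 0.535 (0.483 to 0.592) after rhIL-7-hyFc 1.25 mg/kg. Its Cd8a was at 1456, 1431, 1381 and 1535 CPM in that order, and its Cd8b1 at 994, 931, 730 and 821. All other Pdcd1-positive barcodes of clone size 5 or more had Cd8a at 1226, 1466, 1363 and 1163 CPM and Cd8b1 at 1374, 1397, 1067 and 997, a ratio of 1.12, 0.953, 0.783 and 0.857. Cd8b1 was lower in the barcodes of this clonotype than in those in all 4 libraries, at folds of 0.724 (0.643 to 0.812), 0.667 (0.555 to 0.795), 0.684 (0.608 to 0.766) and 0.823 (0.757 to 0.893). Cd8a was at folds of 1.19 (1.08 to 1.31), 0.976 (0.843 to 1.12), 1.01 (0.930 to 1.10) and 1.32 (1.24 to 1.40), so its difference lay within counting error after buffer and the combination. The low ratio is not particular to this clonotype, since the lowest clonotype ratios of the buffer, combination and rhIL-7-hyFc 1.25 mg/kg libraries (0.431, 0.314 and 0.331) were lower still. Between 93.3% and 100% of its barcodes had a Pdcd1 UMI, and at most 1.12% had a Klra7 UMI, so they are another group than the Klra7 barcodes.

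**Figure D5:**
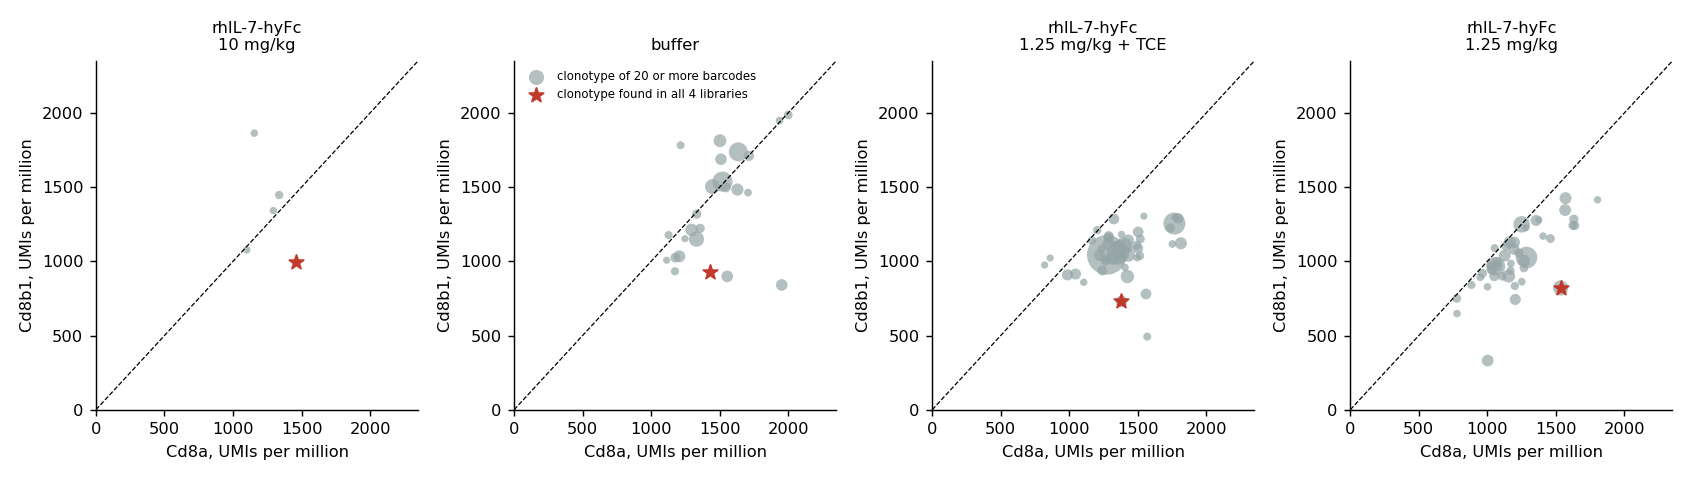
Pooled Cd8a and Cd8b1 CPM of each TRB clonotype with 20 or more barcodes in the 4 libraries (point area grows with the number of barcodes), with the larger of the 2 clonotypes found in all 4 libraries as a star and a dashed line of equal CPM. The star lies below the line in every library, with ratios of 0.683, 0.651, 0.528 and 0.535.

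Regulators of the CD8 genes, a list of 20 transcription factors and chromatin or DNA-modifying enzymes, were read beside the chains. In experiment 1, 19 were measured over all T barcodes, with 4 at least 1.5-fold higher (Satb1, Tcf7, Lef1, Eomes) and 4 at least 1.5-fold lower (Zbtb7b, Tox, Dnmt1, Tbx21) after rhIL-7-hyFc 10 mg/kg over buffer, and a median log2 fold of 0.05 against -0.15 over all genes. Over all genes 7.71% were called higher and 16.8% lower, so the count of lower members is near the background. Satb1, a chromatin organiser of naive T cells, was at 265 CPM after rhIL-7-hyFc 10 mg/kg and 76.5 after buffer, and Tox, a factor of chronically stimulated T cells, at 20.7 and 79.9. Tcf7, which encodes the naive and memory factor TCF-1, was at 145 and 37.1, and Runx3, which maintains Cd8a expression, at a fold of 0.805. Of 18 measured within Pdcd1-negative barcodes, Satb1 and Eomes were higher and Tox lower, where 3.59% of all genes were called higher and 11.3% lower. The count of lower members there is thus not above the background. Of 19 measured within Pdcd1-positive barcodes, Satb1, Tcf7 and Eomes were higher and Tox lower, where 2.99% and 2.67% of all genes were called. In experiment 2, 0 of 20 were higher and 2 lower (Zbtb7b, Tcf7) after the combination over rhIL-7-hyFc 1.25 mg/kg, near the 8.48% called lower over all genes, at a median of -0.02 against 0.08 over all genes, and Runx3 was at 0.726. Tcf7 was at 61.6 CPM after the combination and 104 after rhIL-7-hyFc 1.25 mg/kg, and Tox at 46.6 and 32.8, a fold of 1.42 that is under the threshold.

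Genes of the IL-7 receptor and STAT5 pathway gave different counts by T cell state. Over all T barcodes of experiment 1, 6 of 18 measured members were higher (Jak1, Socs1, Socs3, Pim2, Foxo1, Klf2) and 2 lower (Cish, Socs2), at a median log2 fold of 0.23 against -0.15 over all genes, where 7.71% were called higher and 16.8% lower. Socs3, a feedback inhibitor of cytokine signalling, was at 275 CPM after rhIL-7-hyFc 10 mg/kg and 111 after buffer, while Bcl2, a survival gene that IL-7 is known to raise, was at a fold of 1.40 and Il7r at 1.17. Among Pdcd1-negative barcodes, 0 were higher and 2 lower (Stat5b, Klf2), near the 11.3% called lower over all genes, at a median of -0.20 against -0.10, and among Pdcd1-positive barcodes 2 were higher (Socs3, Foxo1) and 0 lower, where 2.99% and 2.67% of all genes were called. The counts over all T barcodes were therefore not those found within the states. In experiment 2, 0 were higher and 2 lower (Socs3, Osm) of 19, near the background of 8.48%, at a median of -0.04 against 0.08 over all genes. Osm, a cytokine gene that STAT5 is known to induce and that myeloid cells also transcribe, was at 5.81 CPM after the combination and 39.4 after rhIL-7-hyFc 1.25 mg/kg, the library with the highest myeloid sum, whose part in this value was not tested. Socs3 was at 91.0 and 137 and Klf2, a factor of resting T cells, at 105 and 155. Socs1 and Foxo1, which were among the members called in experiment 1 at folds of 1.76 and 1.82, were not called in experiment 2.

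Of 18 partners of the coreceptor at the membrane, 2 were higher (Fyn, Pag1) and 0 lower after rhIL-7-hyFc 10 mg/kg over buffer, near the 7.71% called higher over all genes and at a median of 0.11, and 0 were called in either direction in experiment 2. Lck, the kinase that CD8α carries, was at a fold of 1.17 in experiment 1 and 1.06 in experiment 2. Fyn, a related kinase, was at 102 CPM after rhIL-7-hyFc 10 mg/kg and 59.4 after buffer, the kinase regulator Pag1 at a fold of 1.51 and the adaptor Lat at 1.46. The largest folds of experiment 2 were 1.39 for the costimulatory receptor Cd28, 1.31 for the phosphatase Ptpn22 and 0.767 for Pag1, all under the threshold. In the contrast by Pdcd1, Tcf7 was lower in Pdcd1-positive barcodes of all 4 libraries, at 34.9 CPM in positive and 178 in negative barcodes after rhIL-7-hyFc 10 mg/kg and 18.2 and 126 after buffer, while Cish was higher, at 238 and 99.4 after rhIL-7-hyFc 10 mg/kg and 210 and 139 after buffer. Bcl2 was lower in Pdcd1-positive barcodes of all 4 libraries, at folds of 0.548, 0.364, 0.503 and 0.403. Tcf7, Cish and Bcl2 are given for this contrast after their values were seen.

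Across 20 strata of T barcodes (library, Pdcd1 state and clone size, each with at least 100 barcodes), the log2 levels of 2537 genes, centred within each library, were set against those of the CD8 chains. Cd8a was most like Sdf4 (Pearson r 0.98), Actr10 (0.98), Ubash3b (0.98), Gpi1 (0.97) and Fam3c (0.97). Cd8b1 was most like Sptlc2 (0.90), Mrps16 (0.89), Psmb1 (0.86), Thy1 (0.85) and Nkg7 (0.85). The chains had an r of 0.77 with each other, which ranked Cd8b1 at 552 in likeness to Cd8a and Cd8a at 41 in likeness to Cd8b1. Strata of 1 library share its depth and free RNA, so these values describe likeness over these strata only.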

How the data were processed

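The authors deposited raw UMI counts per gene and barcode and productive receptor contigs, aligned to GRCm38 per the submitters' processing notes. Libraries used 10x 5′ v2 chemistry per the labels' protocols, and Cell Ranger 4.0.0 (experiment 1) and 6.1.2 (experiment 2) per the file headers. No source used here says whether doublets were removed before deposit, and no caller was run: barcodes with exactly 1 productive TRB and at most 2 TRA contigs were an alternative. Barcodes with at least 500 genes and under 10% mitochondrial UMIs were kept. Counts were pooled per library and group of T barcodes and divided by the group's total UMIs (CPM). Levels have exact Poisson intervals, folds exact conditional binomial intervals and shares Clopper-Pearson intervals, all at 95%. With 1 library a group no test was run, and a difference of at least 1.5-fold was called in genes with at least 5 CPM in 1 of both groups. Genes named from the lists are the 3 with the largest fold in either direction among members of at least 20 CPM in each treatment contrast, plus Il7r, Gfi1, Runx3, Lck, Socs3 and Bcl2. Gfi1 was under the floor in experiment 1 and at a fold of 1.28 in experiment 2.

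A clonotype is the V gene and CDR3 nucleotide sequence of the productive TRB contig with most UMIs, and its size is the number of T barcodes in the library that carry it. Thinning drew 4000 UMIs per barcode without replacement (seed 7). The genes, gene lists and groups of barcodes were chosen with earlier results of these data known. On simulated counts with 200 changed genes the calls recovered 99.5% of them in experiment 1 (8635 genes) and 100% in experiment 2 (9079 genes). The planted changes were larger than the 1.5-fold threshold and the noise was Poisson only. High recovery was thus built in, and recovery near the threshold was not tested. Recovery under variation between mice or libraries was not tested, since each group is 1 library. Python 3.11.15, numpy 2.4.6, pandas 2.3.3, scipy 1.17.1 and matplotlib 3.10.9 were used, with edgeR 4.0.16 in R 4.3.3 for TMM factors on the counts. Gene positions come from GENCODE M21. The sequences of the clonotypes, and the other clonotype present in all libraries, are not reported here.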

Additional observations from a re-analysis of the deposited data

Results flagged for a closer look

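The Cd8a difference by Il7r detection pointed opposite ways in the libraries of each experiment. After rhIL-7-hyFc 10 mg/kg Cd8a was lower in Il7r-positive than in Il7r-negative T barcodes (fold 0.907, 95% counting interval 0.890 to 0.926), whereas after buffer it was higher (1.10, 1.08 to 1.12). It was higher in Il7r-positive barcodes after the combination (1.16, 1.14 to 1.18) and lower after rhIL-7-hyFc 1.25 mg/kg (0.953, 0.934 to 0.972). With each clonotype counted once the combination was at 0.985, and without barcodes holding myeloid UMIs rhIL-7-hyFc 1.25 mg/kg was at 1.02, so the opposite directions of experiment 2 did not hold under these settings. Of 12 pairs of folds looked at, 2 were opposite in this way, and the difference between libraries was not tested, since each is a single library. Within Pdcd1-positive barcodes the folds were 0.975, 1.03, 1.08 and 0.909, and none reached 1.5. The interval of the first, after rhIL-7-hyFc 10 mg/kg, was 0.942 to 1.01 and holds 1. Within Pdcd1-negative barcodes of experiment 1 the folds were 0.887 (0.865 to 0.909) after rhIL-7-hyFc 10 mg/kg and 0.975 (0.914 to 1.04) after buffer. The opposite directions of experiment 1 were thus not found in Pdcd1-negative barcodes.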

How the results depend on the processing

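Of 986 values of 82 results recomputed under 21 alternatives, 896 kept their direction and their side of the 1.5-fold threshold, 63 uncalled folds crossed 1, 17 lost a call, 10 moved and no called value reversed. The folds that crossed 1 belong to results within 1.16-fold of 1, among them the experiment 2 folds without myeloid UMIs. Over all T barcodes of experiment 1, the Cd8a fold of 0.610 was 0.703 with TMM factors, 0.673 without ribosomal and mitochondrial genes in the total and 0.881 with each clonotype counted once. The Cd8a fold by Pdcd1 was 1.498 with TMM factors and 1.46 with each clonotype once after rhIL-7-hyFc 10 mg/kg, and 1.39 with each clonotype once after the combination, where the fold in the chain ratio was 0.762. The Cd8b1 fold by Pdcd1 after buffer was 1.48 with each clonotype once and 1.40 without Klra7 barcodes. In Pdcd1-negative barcodes of experiment 1, the Cd8b1 fold was 1.48 without myeloid UMIs, 1.33 thinned, 1.499 with at least 1 CD8 UMI and 1.26 without Klra7 barcodes, and the fold in the chain ratio was 1.49 without Mki67 or Top2a UMIs and 1.38 without Klra7 barcodes. Without Klra7 barcodes the Cd8b1 fold in clone size 1 of experiment 1 was 1.304, and the fold by clone size after buffer was 1.497. The share with Cd8a alone was 4.39%, 9.87%, 7.44% and 8.97% thinned to 3000 UMIs in the rhIL-7-hyFc 10 mg/kg, buffer, combination and rhIL-7-hyFc 1.25 mg/kg libraries, and 2.03%, 6.90%, 2.96% and 3.40% unthinned. With a floor of 20 CPM, 1 pathway gene was lower in experiment 1 in place of 2, and 1 regulator in experiment 2 in place of 2, since fewer genes were measured. Causes of the other changes were not tested. The Klra7, shared-clonotype and 5000 to 15000 UMI alternatives were chosen after seeing the data. No paired analysis was possible because each group is 1 library, and for the same reason no replicate could be left out.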

Other observations

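Cd8a was also found outside T cells. Among barcodes with neither a TRB contig nor a Cd3 UMI, those with at least 2 UMIs of Siglech, a receptor of plasmacytoid dendritic cells, had Cd8a at 652 CPM (14 barcodes) after rhIL-7-hyFc 10 mg/kg, 754 (16) after buffer, 1075 (12) after the combination and 568 (133) after rhIL-7-hyFc 1.25 mg/kg. Their Cd8b1 was at 61.5, 692, 631 and 312 CPM. Barcodes with at least 2 UMIs of C1qa, a macrophage gene, had Cd8a at 23.9, 47.3, 0 and 12.4 CPM (62, 80, 10 and 145 barcodes), so the level of Cd8a differed between these groups of the same library. Mouse plasmacytoid dendritic cells are known to carry CD8α, and RNA from T cells in the same droplet was not tested. These barcodes were chosen after their values were seen.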
